A study of Mus musculus with 4 samples.

Results

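Enteroendocrine cells are the hormone-secreting cells of the gut epithelium. They are scattered singly among absorptive and mucus-producing cells, store peptide hormones in dense-core granules, and release them when they sense nutrients or microbial products at their luminal face. A cascade of transcription factors commits a crypt progenitor to this lineage, and each mature cell then makes a limited set of hormones that differs along the length of the intestine. The 10 genes described here were 4 hormone genes (Insl5, Gcg, Pyy and Sct), 3 genes of granule proteins (Chga, Chgb and Scg5) and 3 genes of transcription factors (Neurod1, Insm1 and Pax6), out of 27344 gene names on the array. They were taken by name because of these roles, with earlier results of these data known. Insl5 was also selected on its log2 ratio in the Axin2+ arrays, so that ratio is given as a description only. All 15 probes of these genes were examined. A gene is read from its brightest probe. It is called measured in an experiment where, on each of the 2 arrays, 1 or both dye channels of that probe stood well above the local background.

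The values came from 4 dual-colour arrays of male C57BL/6 mice aged 6 to 8 weeks, all of which received tamoxifen at 4 mg per 25 g. In the first experiment, Myh11CreErt2/Rspo3 fl/fl mice (Rspo3 KO) were each set against a Myh11CreErt2/Rspo3+/+ mouse (control) 2 weeks after tamoxifen. There were 2 pairs of mice, with the dyes reversed. A pair is the 2 mice hybridised on 1 array. The study's methods name littermates as controls, but whether the mice of a pair shared a litter is not known here. Rspo3 is a secreted protein that strengthens Wnt signalling, and Myh11 drives Cre in smooth muscle cells and myofibroblasts, so Cre acts outside the epithelium that makes these hormones. In the second, ESA+ DAPI- epithelial cells of the colon of Axin2CreErt2/Rosa26-tdTomato mice were sorted 24 h after tamoxifen into tdTomato-positive cells (Axin2+) and tdTomato-negative cells (Axin2-), and cells of 3 mice were pooled for each. Axin2 is a Wnt target gene of the lower crypt. The 2 Axin2 arrays were a dye swap of 1 pair of pools, so their spread is technical and no test was made on them. The labels give distal colon for the Rspo3 KO experiment, and Hoxa13 and Hoxb13, Hox genes of the distal gut, were measured in both experiments.

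Of 43379 gene spots per array, 53.1% to 60.3% were well above background over the 8 channels. The ratios of the 2 Axin2 arrays correlated at r = 0.92 across genes, those of the 2 Rspo3 KO pairs at r = 0.03 (genes are not independent replicates), and in 55.8% of 15373 genes the 2 pairs had opposite signs. Axin2 itself was higher in the Axin2+ pool, with log2 ratios of 1.35 and 1.30, and so was the stem cell gene Lgr5, with a mean of 1.53. The brighter Rspo3 probe read 0.10 and 0.17 (log2, Rspo3 KO over control) and was above background in pair 2 only, and its place relative to the deleted part is not given in the sources used here, so it does not check the Rspo3 KO labels. In the same arrays Lgr5 read -1.28 and -2.61, a mean 3.85-fold lower in Rspo3 KO than in control mice (limma adjusted p = 0.0996). It was above background in the control mice of both pairs but in neither Rspo3 KO mouse. The size of its fall is thus uncertain. Axin2 read -0.45 and -0.26 (limma adjusted p = 0.9997).

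All 4 hormone genes and all 3 granule genes were lower in Axin2+ than in Axin2- cells, by 3.41-fold to 13.5-fold, while the 3 transcription factor genes lay within 1.5-fold of equal. The low end of that range is Scg5, which was dim in Axin2+ cells and had a mean log2 ratio of -1.77, but of -3.83 with the scanner software's own log ratio. Thus 7 of the 10 genes had a mean ratio past 1.5-fold with the same sign on both arrays, all 7 lower. Insl5, selected on this contrast, enters this count and the median below, so both are descriptions only. Over all 15880 genes measured, 6.92% were past 1.5-fold lower and 7.87% past 1.5-fold higher. The median log2 ratio of the 10 genes was -2.01, beside -0.00486 for all genes. With 1 pair of pools these are differences between 2 RNA preparations, and fewer enteroendocrine cells in a pool cannot be told apart from less hormone RNA per cell.

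**Figure D1:**
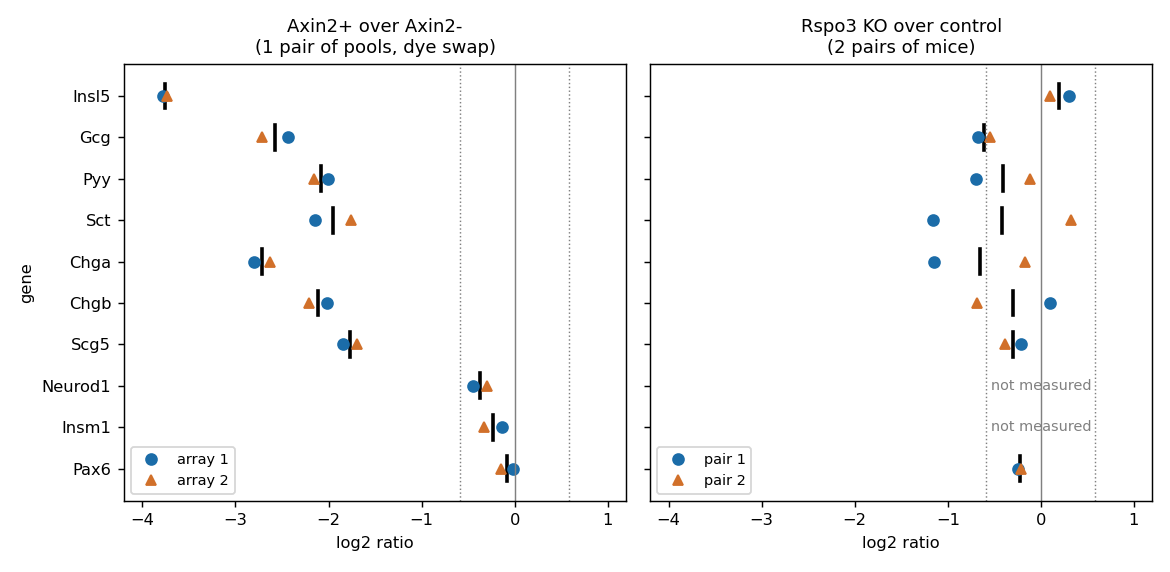
Log2 ratios (x axis) of the 10 genes (y axis) on each array, with Axin2+ over Axin2- at left and Rspo3 KO over control at right. Points are single arrays, black bars their means, dotted lines mark 1.5-fold, and genes below background are marked as not measured. At left the hormone and granule genes lie between -1.69 and -3.78 on both arrays. At right the pairs of Chga, Chgb and Sct lie far apart.

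Insl5 encodes insulin-like peptide 5, a relaxin-family hormone of the distal colon. Its normalised log2 intensity was 8.99 in Axin2+ and 12.77 in Axin2- cells on array 1, and 9.11 and 12.85 on array 2. Both Axin2+ values lay far below both Axin2- values, and the dye swap moved the ratio little, from -3.78 to -3.74. The mean corresponds to a 13.5-fold lower level, and only 1 of the 15880 genes had a lower mean ratio.

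Gcg encodes proglucagon, which L cells of the gut process to the glucagon-like peptides. It is read by 1 probe printed in 10 spots, with log2 ratios of -2.43 (SD over 8 spots 0.032) and -2.72 (SD over 10 spots 0.047), a mean of 5.96-fold lower. The gap between the 2 arrays was thus wider than the scatter of the spots on either of them, while both arrays put Axin2+ cells lower. Pyy encodes peptide YY, a hormone that L cells release together with the glucagon-like peptides. Its brighter probe had a mean of -2.08, 4.22-fold lower, with -2.16 on array 2 and less on array 1, and its other probe read -1.62 and -1.66, so both probes gave a lower level in Axin2+ cells and differed in its size. Sct encodes secretin, the hormone that stimulates bicarbonate secretion by the pancreas. Its ratios of -2.14 and -1.76 were the farthest apart of the 10 genes, and their mean was 3.86-fold lower.

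Chga and Chgb encode chromogranins A and B, acidic proteins of the dense-core granule and the common markers of enteroendocrine cells. The normalised log2 intensity of Chga was 11.10 in Axin2+ and 13.90 in Axin2- cells on array 1, and 11.17 and 13.80 on array 2. The mean was 6.57-fold lower in Axin2+ cells, and 18 genes had a lower one. Chgb, also in 10 spots, read -2.01 (SD 0.037) and -2.21 (SD 0.033), and was 4.32-fold lower. Scg5 encodes the chaperone of the prohormone convertase Pcsk2. It read -1.84 and -1.69. Its level in Axin2+ cells was close to background, and its mean moved from -1.77 to -2.43 at an offset of 16 and to -3.83 with the software's log ratio. Its size and its rank among the 7 are thus not settled, though it was past 1.5-fold lower in every alternative.

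The transcription factor genes had ratios nearer to 0. Neurod1, a basic helix-loop-helix factor of late enteroendocrine differentiation, read -0.45 and -0.30. Insm1, a zinc-finger factor of endocrine progenitors, read -0.13 and -0.33. Pax6, a paired-homeobox factor required for Gcg expression in endocrine cells, read -0.02 and -0.14. All 3 were dim, with mean normalised log2 intensities of 6.50 to 6.73, close to background, where the offset added before taking logs draws a ratio toward 0. The other 2 Pax6 probes read near 0 or were below background. The genes on either side of the 1.5-fold line were Scg5, at a mean of -1.77, and Neurod1, at -0.38. Under a normexp offset of 16 in place of 50 Neurod1 passed 1.5-fold. With the scanner software's own log ratio Neurod1 and Insm1 both passed it, so the count rose to 8 and 9. The genes past 1.5-fold lower over all genes also rose, from 1099 of 15880 to 1519 of 15878 at an offset of 16. With the software's log ratio they were 2440 of 15880.

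**Figure D2:**
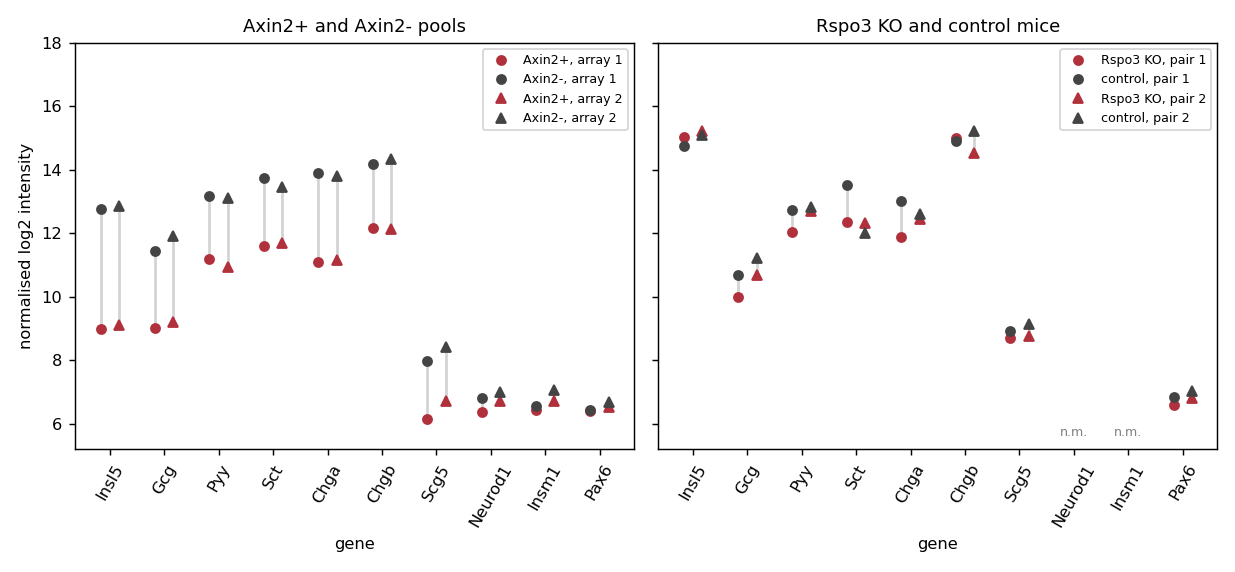
Normalised log2 intensity (y axis) of each gene (x axis) in Axin2+ and Axin2- pools at left and in Rspo3 KO and control mice at right, with circles for array or pair 1 and triangles for array or pair 2. Levels are to be compared within a gene, since probes differ in brightness, and within a panel, since the 2 panels were normalised separately. The label n.m. stands for not measured. Insl5 lay at 12.77 in Axin2- and 8.99 in Axin2+ cells on array 1 at left. Its 4 values at right, on the scale of that panel, lay between 14.74 and 15.20.

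The regions upstream of the 3 genes with the lowest ratios are shown because the members were lower together and because Neurod1 belongs to the class of factors that bind the E-box CANNTG. Each is the 250 bases before the outermost start site in the RefSeq table (GRCm38.p6), 5′ to 3′ on the gene's strand, with every CANNTG in capitals. Insl5 is chr4:103027272-103027521 (minus strand), Chga is chr12:102554691-102554940 (plus strand) and Gcg is chr2:62483654-62483903 (minus strand).
Insl5: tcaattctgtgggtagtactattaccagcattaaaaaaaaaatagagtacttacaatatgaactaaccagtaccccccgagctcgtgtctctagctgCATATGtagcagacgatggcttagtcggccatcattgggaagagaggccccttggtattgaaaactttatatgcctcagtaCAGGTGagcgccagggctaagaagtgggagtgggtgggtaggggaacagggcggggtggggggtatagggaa
Chga: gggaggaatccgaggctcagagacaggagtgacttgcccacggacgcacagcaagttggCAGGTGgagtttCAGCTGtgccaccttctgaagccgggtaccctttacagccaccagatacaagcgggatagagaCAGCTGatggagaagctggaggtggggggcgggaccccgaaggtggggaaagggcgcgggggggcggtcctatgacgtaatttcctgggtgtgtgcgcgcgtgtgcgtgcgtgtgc
Gcg: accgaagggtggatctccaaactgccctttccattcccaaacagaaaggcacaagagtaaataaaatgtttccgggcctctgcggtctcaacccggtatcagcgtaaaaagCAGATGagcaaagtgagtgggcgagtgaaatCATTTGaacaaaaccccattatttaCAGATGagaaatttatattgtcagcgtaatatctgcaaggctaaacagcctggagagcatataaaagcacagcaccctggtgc
The E-box reads the same on both strands in its fixed letters. It was found in 66.2% of all 32851 such windows and in 11 of the 12 windows of the 9 members listed, so most genes hold one. The narrower form CAGATG or its reverse CATCTG was found in 14.4% of all windows and in 3 of the 12, those of Gcg, Sct and the inner start of Insl5. CAGCTG was found in 13.0% and in 2 of the 12, those of Chga and Sct. Both narrower forms are also counted under CANNTG. In Gcg the CAGATG letters began 139 and 83 bases before the start. These are matches of letters, not evidence of binding.

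In the array design's mm9 coordinates, the probes lie at chr4:102690539-102690598 for Insl5, chr2:62312685-62312744 for Gcg, chr12:103803083-103803142 for Chga, chr2:132620703-132620762 for Chgb and chr7:148464238-148464297 for Sct. Scg5 is read at chr2:113616611-113616670, Neurod1 at chr2:79293621-79293680, Insm1 at chr2:146050005-146050064 and Pax6 at chr2:105537277-105537336. The 2 Pyy probes lie at chr11:101967990-101968049 and chr11:101968311-101968370.

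Other genes of the lineage were followed through lists made by role. Of 10 further gut hormone and transmitter genes measured, 6 were past 1.5-fold lower in Axin2+ cells and 0 higher, with a median log2 ratio of -0.73. Tph1, the enzyme that commits enterochromaffin cells to serotonin, read -2.27 and -2.39. Cck, cholecystokinin, read -1.81 and -1.99. Tac1, the precursor of substance P, read -1.25 and -1.29, and Sst, somatostatin, -1.13 and -1.29. Ppy, pancreatic polypeptide, and Nts, neurotensin, were lower by less, at -0.66 and -0.82 and at -0.77 and -0.66. Lower values were thus seen for products of enterochromaffin and somatostatin cells as well as for the L cell hormones Gcg, Pyy and Insl5.

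Of 24 secretory granule genes measured, 9 were past 1.5-fold lower and 0 higher, with a median of -0.53. Resp18, a granule protein, read -2.15 and -2.06. Cpe, carboxypeptidase E, which trims peptide hormones after cleavage, read -1.44 and -1.70, and Pcsk1n, an inhibitor of the convertase Pcsk1, read -1.46 and -1.67, with 1 of its 3 measured probes having the other sign. Aplp1, a member of the amyloid precursor family, read -1.30 and -1.55, Syt13, a synaptotagmin, -1.31 and -1.43, and Slc18a1, the monoamine transporter of enterochromaffin granules, -1.21 and -1.24. The convertases themselves read near 0, with -0.03 and -0.11 for Pcsk1 and 0.04 and 0.17 for Pcsk2. Only 18 of the 24 granule genes had both channels above background on both arrays. Close to background the offset draws a ratio toward 0, so a ratio near 0 does not by itself show equal levels. The count rose to 15 at an offset of 16 and to 17 with the software's log ratio, which put the list median at -1.74. Over all genes those past 1.5-fold lower rose too, to 1519 and 2440.

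Of 20 other endocrine regulators measured, 1 was past 1.5-fold lower and 1 higher, with a median of -0.15. The higher one was Sox4, a factor of endocrine progenitors that also acts in other crypt cells, at 1.04 and 0.80. It did not pass 1.5-fold under median centring. Neurog3, the factor that starts the endocrine programme, read -0.04 and -0.01. The count of lower regulators reached 9 with the software's log ratio, beside 2440 of all 15880 genes, and their median was then -0.52. A regulator ratio near 0 thus depends on the processing and does not show equal levels. Of 10 nutrient sensor genes, Ffar4, a receptor for long-chain fatty acids, was past 1.5-fold lower, at -0.60 and -0.86. Of 9 receptors of gut hormones, 0 passed, but 1 passed lower at an offset of 16, and 4 lower and 2 higher with the software's log ratio.

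**Figure D3:**
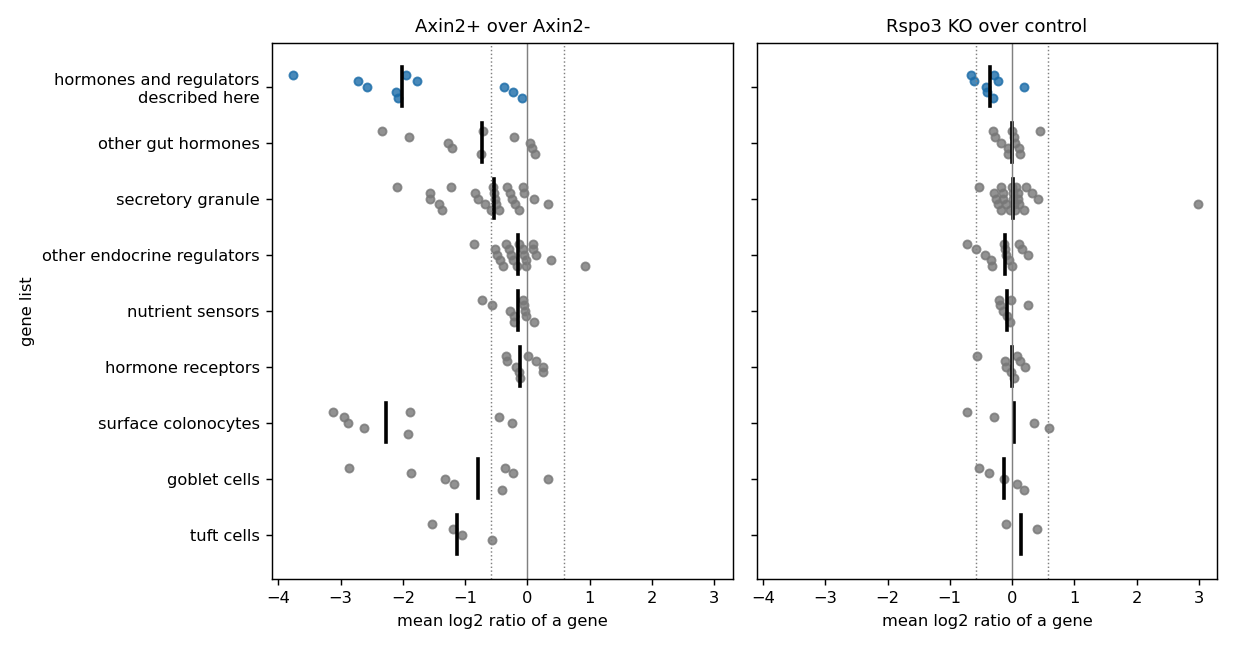
Mean log2 ratio (x axis) of each measured gene in 9 gene lists (y axis), for Axin2+ over Axin2- at left and Rspo3 KO over control at right. Points are genes, black bars list medians, and dotted lines mark 1.5-fold. At left the 10 genes described here have a median of -2.01 and the surface colonocyte markers one of -2.28. At right the granule gene far to the right is Pam, at 2.99.

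Markers of other differentiated epithelial cells moved with these genes. Of 8 surface colonocyte markers, 6 were past 1.5-fold lower in Axin2+ cells (Car4, Aqp8, Krt20, Slc26a3, Guca2a and Car1), and their summed log2 intensity was 16.49 to 16.56 in Axin2+ and 17.84 to 17.98 in Axin2- cells. Of 8 goblet cell markers, 4 were past 1.5-fold lower, with sums of 16.73 to 16.75 and 17.43 to 17.44, while the mucin Muc2 was higher at 0.30 and 0.34. Of 4 tuft cell markers, 3 were past 1.5-fold lower, with sums of 8.71 to 9.04 and 9.87 to 10.19. Of 5 general epithelial markers 2 were past 1.5-fold lower, Krt8 at -0.64 and -1.03 and Krt19 at -0.58 and -0.77, with sums of 16.68 to 16.90 and 17.40 to 17.42, while Epcam read 0.04 and 0.03. Neither keratin passed under median centring. All 5 distal Hox genes measured were lower on both arrays, 2 of them past 1.5-fold, Hoxa13 at -1.06 and -0.96 and Hoxb13 at -1.07 and -1.29, with sums of 10.76 to 10.80 and 11.73 to 11.84. Of the 12 enteric neuron markers, which matter because neurons also hold chromogranins and peptide hormones, 4 were measured, with sums of 8.44 to 8.51 and 8.91 to 9.15. Vip, Nos1, Prph and Elavl4 were not well above background in the sorted cells, while Snap25, which endocrine cells also make, and Uchl1 were past 1.5-fold lower. The part of these cell types and of position along the colon in the result was not tested.

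In the Rspo3 KO experiment 8 of the 10 genes were measured. Neurod1 and Insm1 were not well above background in pair 1. The question was whether loss of Rspo3 from Myh11-expressing cells changed the hormone genes of the colon. limma called 0 of the 8 genes at an adjusted p of 0.05, beside 0.241% of the 15373 genes tested, and 1 of the 8, Gcg, had an unadjusted p under 0.05, as did 4.65% of all genes. By size alone 2 of the 8, Chga and Gcg, were past 1.5-fold lower with the same sign in both pairs and 0 were past it higher, beside 2.47% and 1.85% of all genes. The median log2 ratio of the 8 was -0.46 in pair 1, -0.19 in pair 2 and -0.35 for the means, beside -0.0116 for the means of all genes. Gcg did not pass 1.5-fold under median centring, nor with all spots in the background fit.

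The normalised log2 intensity of Gcg was 9.99 in the Rspo3 KO mouse and 10.67 in the control of pair 1, and 10.68 and 11.22 in pair 2. The Rspo3 KO mouse was lower within each pair, but the Rspo3 KO mouse of pair 2 had about the level of the control of pair 1. The log2 ratios were -0.68 and -0.55, the closest pairs but Pax6's, with a mean of -0.61 (SD 0.095, SE 0.23, 95% interval -1.14 to -0.08, n = 2 pairs, limma adjusted p = 0.903). Its 10 spots had an SD of 0.078 in pair 1 and 0.103 in pair 2, and no spot was above 0.

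Chga was 11.87 in the Rspo3 KO mouse and 13.01 in the control of pair 1, but 12.44 and 12.61 in pair 2. The difference lay mostly in pair 1, with ratios of -1.14 and -0.17 and a mean of -0.66 (SD 0.69, 95% interval -1.32 to 0.01, limma adjusted p = 0.9997). Chgb had 10 spots a pair and went in opposite directions, 0.10 (SD over spots 0.079) in pair 1 and -0.69 (SD over 9 spots 0.072) in pair 2. The gap between its pairs was many times the scatter of its spots. Sct was 12.36 and 13.52 in pair 1, and 12.34 and 12.01 in pair 2. Its ratios of -1.16 and 0.33 were the farthest apart of the 8 (mean -0.42, SD 1.05), and the controls differed from each other by more than the Rspo3 KO mice did. The 2 chromogranin genes were each lower by over 1.5-fold in 1 pair only, Chga in pair 1 and Chgb in pair 2.

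**Figure D4:**
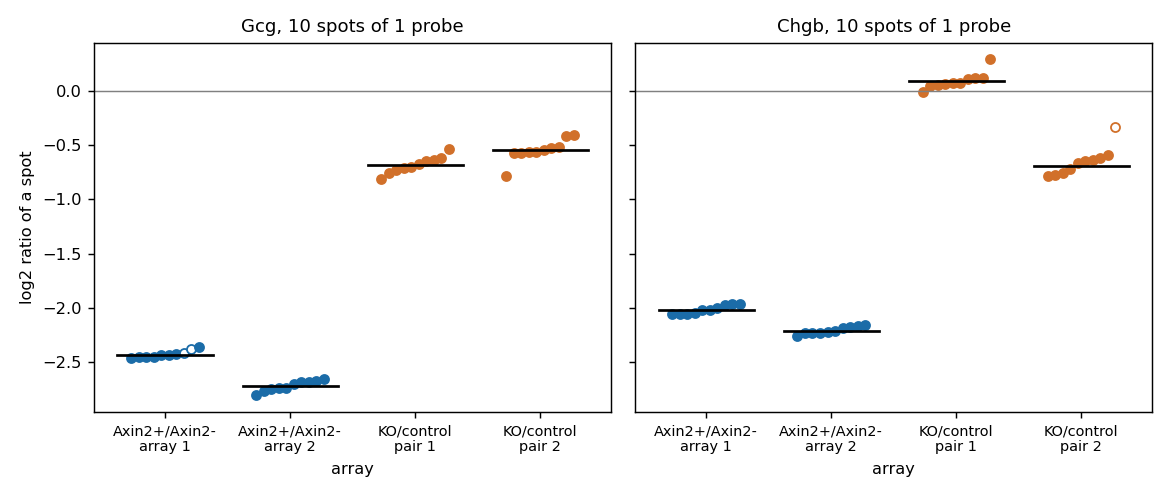
Log2 ratio (y axis) of each of the 10 spots of the Gcg probe at left and the Chgb probe at right on the 4 arrays (x axis). Each point is a spot, open points are spots left out as outliers, and black lines are means of the spots used. The spots of 1 array lie close together, and the Chgb pairs centre on 0.10 and -0.69.

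Insl5, by far the lowest member in Axin2+ cells, was the 1 gene of the 8 that was higher in both Rspo3 KO mice than in their controls. Its normalised log2 intensity was 15.04 and 14.74 in pair 1, and 15.20 and 15.10 in pair 2. The ratios of 0.30 and 0.10 had a mean of 0.20 (SD 0.14, 95% interval -0.33 to 0.74, limma adjusted p = 0.9997). This interval holds no change and does not reach a fall of 1.5-fold, but it rests on 2 pairs and is not adjusted for the number of genes. Scg5 read -0.22 and -0.38 and Pax6 -0.24 and -0.21, lower in both pairs and within 1.5-fold (95% intervals of the means -0.83 to 0.23 and -0.75 to 0.30).

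Pyy was read from its second probe in this experiment, since the spot of the brighter one was marked as an outlier on both arrays. The probe is shown as the value rests on it, in lower case and 5′ to 3′.
Pyy: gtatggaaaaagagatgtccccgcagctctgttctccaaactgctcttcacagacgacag
It read -0.69 and -0.12, with a mean of -0.41 (95% interval -0.99 to 0.17), lower in both pairs. The brighter probe, had it been kept, read -0.47 and -0.29.

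Each Rspo3 KO pair was hybridised in 1 dye orientation, so the pair and the dye cannot be told apart in a single ratio. The dye effect cancels in the mean. In 6 of the 8 genes the pairs lay farther apart than the dye-swapped Axin2 arrays did.

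The other lineage lists gave few differences in the Rspo3 KO experiment. Of 11 further hormone genes 0 were past 1.5-fold in either direction, with a median of -0.00489. Tac1 was higher in both pairs, at 0.46 and 0.44, without passing it. Of 13 other regulators 1 passed, Hhex, a homeobox factor of somatostatin cells, at -0.90 and -0.53, though not with all spots in the background fit, and 4 passed lower with the software's log ratio. Of 24 granule genes 1 passed, Pam, the enzyme that amidates peptide hormones such as peptide YY, at 3.37 and 2.62 (limma adjusted p = 0.00807). Its brightest probe gave these values, while its other measured probe read 1.18 and 0.05, so the probes of Pam disagree in size. Of 7 nutrient sensors and 8 hormone receptors 0 passed. With the software's log ratio 1 sensor passed higher and 1 receptor lower, and 1 receptor also passed lower at an offset of 16 and without background correction.

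Surface colonocyte markers went both ways in the Rspo3 KO experiment. Krt20, Aqp8, Car1 and Guca2a had no value here, since their spots were marked as outliers and left out, not for dimness. Of the 4 measured, Guca2b was past 1.5-fold lower at -0.97 and -0.47 and Ceacam1 higher at 1.14 and 0.06. Neither passed with all spots in the background fit, and Ceacam1 did not under median centring. The summed log2 intensity of the 4 measured was 14.24 to 15.25 in Rspo3 KO and 14.47 to 14.83 in control mice. Of 9 enteric neuron markers measured 0 passed, with sums of 13.59 to 14.13 and 13.72 to 13.76, and the median of their means was 0.19. All 4 fibroblast markers had means above 0 (median 0.32), as had all 3 smooth muscle markers (median 0.24), and 0 of either passed. Of 4 immune markers measured 1 was past 1.5-fold lower, though not with all spots in the background fit, and their median was -0.34. Of 4 epithelial markers measured 0 passed, with a median of -0.02. The part of these cell types in the values above was not tested.

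Likeness was measured as the root mean square difference over the 4 log2 ratios. The comparison covered 12109 other genes that were measured in both experiments and named through RefSeq. The gene most like Chga was Gcg, at 0.35, followed by Cyp2c29, a cytochrome P450, at 0.39 and Ces2e, a carboxylesterase, at 0.43. Those most like Insl5 were farther from it. They were Tmigd1 at 0.58, the kinase gene Sgk2 at 0.60 and the carbonic anhydrase gene Car4, a surface colonocyte marker, at 0.61. Tmigd1 read -3.12 and -2.93 in the Axin2 arrays and 0.76 and 0.26 in the Rspo3 KO pairs. Insl5 was selected on values that enter this measure, so its neighbours are a description only.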

How the data were processed

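Dual-colour Agilent whole mouse genome arrays were hybridised by the authors. Per the labels RNA was isolated with TRIzol, whereas the study's methods name a column kit for the Rspo3 KO experiment. The deposited scanner files hold spot intensity from Agilent Feature Extraction 11.5.1.1 and a log10 ratio, and the deposited series table repeats that log10 ratio. Ratios were turned to Rspo3 KO over control and Axin2+ over Axin2-. Intensities were corrected with normexp (offset 50), normalised by loess within arrays and expressed as log2 ratios with limma 3.58.1 in R 4.3.3, so the log2 scale was computed from the deposited intensities. Outlier spots (124 to 510 per array) were removed, the spots of a probe averaged, and the brightest probe taken per gene. Of 41174 probes, 33725 were named through RefSeq by accession, symbol or synonym, and the rest kept the file's name. The 2 Rspo3 KO ratios were tested against 0 (lmFit, eBayes, Benjamini-Hochberg over all 15373 genes, two-sided, threshold 0.05). The p-values set the mean of 2 pairs against a spread that eBayes drew largely from all genes (prior degrees of freedom 6.75, residual 1). The spread between the pairs also holds the dye orientation. The dye-swapped Axin2 arrays were 1 replicate and were not tested. The fit was tested on simulated data. Members and lists were chosen with earlier results of these data known. Named genes were all members, up to 6 genes per list and experiment past 1.5-fold, and the 3 genes most like Chga and most like Insl5. Rspo3, Lgr5, Axin2 and Krt20 were named as checks. Outside this rule, Pcsk1, Pcsk2, Neurog3, Muc2, Epcam, Vip, Nos1, Prph and Elavl4 were also named from the lists. Alternatives were another offset, no background correction, all spots in the background fit, the software's log ratio, median centring, other filters on dim probes, the mean over probes, a fit over all arrays, and each array left out. Intervals cover 95%. The number of arrays limits the precision. A gene of the regulator list that passed 1.5-fold is not reported here.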

Additional observations from a re-analysis of the deposited data

How the results depend on the processing

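The result that limma called 0 of the 8 measured members in the Rspo3 KO experiment held in all 10 alternatives run, with a smallest adjusted p of 0.751 and 0 to 2 members at an unadjusted p under 0.05. For the fit over all 4 arrays, the correlation of the dye swap could not be estimated, so the Axin2 arrays were averaged. That fit called 51 of 13623 genes and 0 members. Over all genes, limma called 37 as reported, but 127 at an offset of 16, 71 without background correction, 1 with all spots in the background fit, 130 with the software's log ratio (equal to the series table), 8 under median centring, 0 without a filter on dim probes and 5 with the mean over probes, and the cause was not tested. The count of members past 1.5-fold in the Rspo3 KO experiment was 2 as reported, 1 (Chga) with all spots in the background fit and 1 (Chga) under median centring, 3 with the software's log ratio, and 1 to 4 when 1 pair was left out (1 without pair 1, 4 without pair 2). The median of members there ranged from -0.43 to -0.30 over the other alternatives. In Axin2+ cells 7 to 9 members were past 1.5-fold lower and 0 higher in every alternative. Their median was -2.01 as reported, -2.13 at an offset of 16, -2.09 without background correction, -2.10 with the software's log ratio and the series table, -2.29 under median centring, -2.08 with both channels above background, -1.90 with the mean over probes, and -2.01 to -1.96 with 1 array left out. The genes past 1.5-fold lower and higher in Axin2+ cells, 1099 and 1249 as reported, were 1519 and 1700 at an offset of 16. They were 2440 and 2743 with the software's log ratio and 591 and 499 under median centring. Of the values of single members under alternatives, 109 of 109 in Axin2 and 86 of 88 in Rspo3 KO kept their sign. Each Rspo3 KO ratio compares the 2 mice of 1 array, so the reported test is paired by array. Whether those mice were also matched by litter is not known here. The ratio of Scg5 in Axin2+ cells moved from -1.77 to -3.83 with the software's log ratio. Signal close to background limits Scg5 and the 3 transcription factor genes, and 2 pairs of mice limit all tests.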
